A study of Mus musculus with 16 samples.

Results

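The Krüppel-like factors described here are 8 zinc-finger transcription factors, Klf2, Klf3, Klf4, Klf6, Klf7, Klf9, Klf10 and Klf13, chosen by gene name from the 43346 genes of a count table of sorted mouse lung endothelial cells (ECs). All 8 were found and all 8 entered every test. The table held 16 RNA-seq libraries in 4 groups: Young Sham (n = 5) and Young Bleo (n = 4) from mice aged 2 months, and Aged Sham (n = 3) and Aged Bleo (n = 4) from mice aged 18 months. Mice in every group carried a collagen-promoter GFP reporter (Col1α1-GFP) on the FVB strain and were of both sexes, with the sex of each mouse not given. Bleo mice had received bleomycin into the trachea, a chemical lung injury, and Sham mice PBS, about a month before sorting. The sorted population was CD31+ and lacked CD45, EpCAM and the GFP reporter, so that leukocytes, epithelial cells and collagen-producing cells were to be left out. The design asks how age and bleomycin injury change the endothelial transcriptome, and the age of the mice and the injury are compared here for the Krüppel-like factors.

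Krüppel-like factors bind GC-rich and CACCC-type DNA through zinc fingers at the end of the protein and act as activators or repressors according to their partners. In ECs, Klf2 and Klf4 are known as the factors switched on by laminar flow, downstream of a kinase cascade that ends in the kinase Mapk7 (ERK5) and MEF2 proteins, and they hold vessels in a quiescent, anticoagulant and vasodilating state through genes such as Nos3 and Thbd. The cerebral cavernous malformation (CCM) complex restrains that cascade. Klf6 is a wound-responsive factor, Klf10 is an early TGF-beta-induced gene, Klf9 is a direct target of the glucocorticoid receptor, and Klf3 is a repressor that works with the corepressor Ctbp. Roles of Klf7 and Klf13 have been studied in neurons and lymphocytes.

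The MEF2 input into Klf2 can be read in the DNA just upstream of the gene, and the upstream letters of the factors that fell most clearly are printed for that reason. RefSeq promoter sequences (build GRCm38.p6, the assembly also called mm10, on which the deposited coordinates lie) matched 7 of the 8 genes. Klf10 had no entry. Letters lying in any annotated exon were left off, capitals mark the motif named for each gene, and every sequence runs 5′ to 3′ on the gene's strand.
Klf2 (chr8:72318812-72319032, plus strand, capitals a MEF2 site): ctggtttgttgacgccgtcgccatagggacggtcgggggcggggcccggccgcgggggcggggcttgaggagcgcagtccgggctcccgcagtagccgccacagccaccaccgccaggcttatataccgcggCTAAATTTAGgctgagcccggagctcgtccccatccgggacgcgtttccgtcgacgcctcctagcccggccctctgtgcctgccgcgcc
Klf6 (chr13:5861239-5861481, plus strand, capitals an E-box): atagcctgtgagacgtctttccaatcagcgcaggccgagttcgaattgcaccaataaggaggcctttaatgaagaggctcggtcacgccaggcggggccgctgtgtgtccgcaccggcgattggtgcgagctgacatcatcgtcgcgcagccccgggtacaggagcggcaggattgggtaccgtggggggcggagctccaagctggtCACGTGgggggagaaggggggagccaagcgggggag
Klf7 (chr1:64121492-64121639, minus strand, capitals CACCC boxes on the other strand): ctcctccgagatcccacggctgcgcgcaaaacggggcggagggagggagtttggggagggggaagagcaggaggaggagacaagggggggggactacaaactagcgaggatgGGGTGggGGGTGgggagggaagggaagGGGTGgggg
The Klf2 stretch and the Klf6 stretch lie in no annotated gene, whereas the Klf7 stretch lies inside the Klf7 locus, in an intron of a longer annotated transcript. The motif letters were searched on both strands of windows of 300 bases. The MEF2 site of Klf2 lay at bases -118 to -109 from the RefSeq start, and 0.557% of 32851 promoters held such a site. It was not found in the windows of the other 6 genes. The CACCC box (letters CACCC), the element that the family itself binds, was present in 57.5% of all promoters and in 5 of the 7 windows, with 3 copies in Klf7 and 5 in Klf3. The GC box (GGGCGG) was in 35.7% of promoters and in 6 of the 7 windows. An E-box (CACGTG) stood in Klf4 and Klf6 against 7.15% of promoters. The AP-1 letters TGANTCA, found in 7.81% of promoters, stood in Klf9 at base -89, where they overlapped its CACCC box. A match describes the letters and not occupancy. The cyclic AMP element TGACGTCA (1.79% of promoters) and the CArG box (1.63%) had no match in the 7 windows. The letters CCGGAA, 1 form of the sites bound by ETS factors, occurred in 14.9% of promoters and in 0 of these 7 windows, and other forms were not searched.

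Total read counts ran from 20907113 to 71035301 per library, and the 8 genes had 2817 to 81729 reads in each library, so that counting error was small beside the spread between mice. Values below are DESeq2-normalized counts (reads divided by a size factor for each library), which are compared within a gene, or deposited FPKM (fragments scaled to gene length and library total), which are compared between genes. Pan-endothelial markers were high throughout, with Cldn5 at 614 to 1720 FPKM and Pecam1 at 66.6 to 152 FPKM, whereas the leukocyte marker Ptprc (CD45) did not exceed 0.517 FPKM. The marker sums moved with the groups. The summed pan-endothelial markers ran from 2305 to 2570 FPKM in Young Sham and 2014 to 2183 in Aged Sham, and were lower, without overlap, in Young Bleo (1510.0 to 1950.0) and Aged Bleo (1355 to 1985). The Cldn5 mean carried most of that fall, from 1530 to 830 FPKM in young ECs and from 1380 to 857 in aged ECs. Kdr fell too (144 to 47.7 and 89.3 to 60.4). In young ECs the means of Pecam1 (121 to 111) and Cdh5 (103 to 79.2) were also lower. Those of Tie1 (57.9 to 66), Egfl7 (394 to 461), Emcn (53.5 to 79.1) and Erg (3.48 to 5.67) rose. In aged ECs Pecam1, Cdh5, Tie1 and Egfl7 had higher means after injury, and Emcn and Erg slightly lower ones. The part of the marker sums in the results below was not tested. Summed FPKM of 6 markers of aerocytes, the large Car4-high alveolar capillary ECs, was 1513 to 1940 in Young Sham and 1139 to 1779 in Aged Sham, but 207.6 to 944.6 in Young Bleo and 192.8 to 1271 in Aged Bleo. The summed leukocyte and macrophage markers (7 of 8 found, mostly Cd74 and Lyz2) ran from 276.1 to 914.9 in Young Sham, 502 to 1339 in Aged Sham, 1118 to 2422 in Young Bleo and 1313 to 3638 in Aged Bleo. The 4 platelet markers reached 3160 in Aged Sham 14 against at most 884.5 in each other library. The lymphatic sum, mostly Ccl21a, ran from 235.1 to 327.9 in Young Sham and 652 to 1466 in Young Bleo. It ran from 219.7 to 320.7 in Aged Sham and 271.1 to 580.1 in Aged Bleo. In the same order of groups the general capillary sum was 499 to 709.1, 683.8 to 877.5, 357.2 to 545.7 and 581.2 to 753.8. The mural cell sum was 39.56 to 85.32, 15.74 to 44.89, 26.28 to 41.16 and 11.3 to 17.17. In these bulk libraries fewer cells of a type and less RNA per cell cannot be told apart.

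Klf2 was by far the most abundant of the 8 transcripts per length. Its mean FPKM was 229 ± 60.6 (SD, n = 5) for Young Sham and 137 ± 28.8 (n = 4) for Young Bleo, against 254 ± 32.6 (n = 3) for Aged Sham and 194 ± 53.8 (n = 4) for Aged Bleo. Over the 16 libraries it ranked 84 among 22032 protein-coding genes. Klf2 alone made up 39.4% to 57.8% of the FPKM summed over the 8 factors in a library. Klf4, the closest functional relative of Klf2 in ECs, came next in every group, with group means of 34.4 to 59.8 FPKM. No Klf4 library reached the lowest Klf2 library in any group.

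Below those came Klf3, with group means of 30.7 to 37.4 FPKM, which overlapped Klf4 in both young groups and lay entirely under it in both aged groups. The order of the means of the other 5 changed with injury. In Young Sham it ran Klf10 (35.0 FPKM), Klf6 (30.0), Klf7 (24.3), Klf9 (17.8) and Klf13 (16.6), and of these neighbours only Klf7 and Klf9 did not overlap. In Young Bleo it ran Klf9 (23.7 FPKM), Klf6 (20.8), Klf10 (18.7), Klf13 (12.5) and Klf7 (11.4), with every one of these neighbours overlapping. By means Klf7 went from place 6 to place 8 and Klf9 from place 7 to place 4, though the overlaps leave the Young Bleo places unresolved. From Aged Sham to Aged Bleo, Klf7 went from place 6 to place 7 and Klf9 from place 7 to place 4. Klf13 held place 8 in both aged groups, and all neighbours among the 5 overlapped there. The summed FPKM of the 8 factors was 440.0 ± 78.9 (SD, n = 5) for Young Sham and 291 ± 36.9 (n = 4) for Young Bleo, against 464 ± 40.3 (n = 3) for Aged Sham and 366 ± 71.8 (n = 4) for Aged Bleo.

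**Figure D1:**
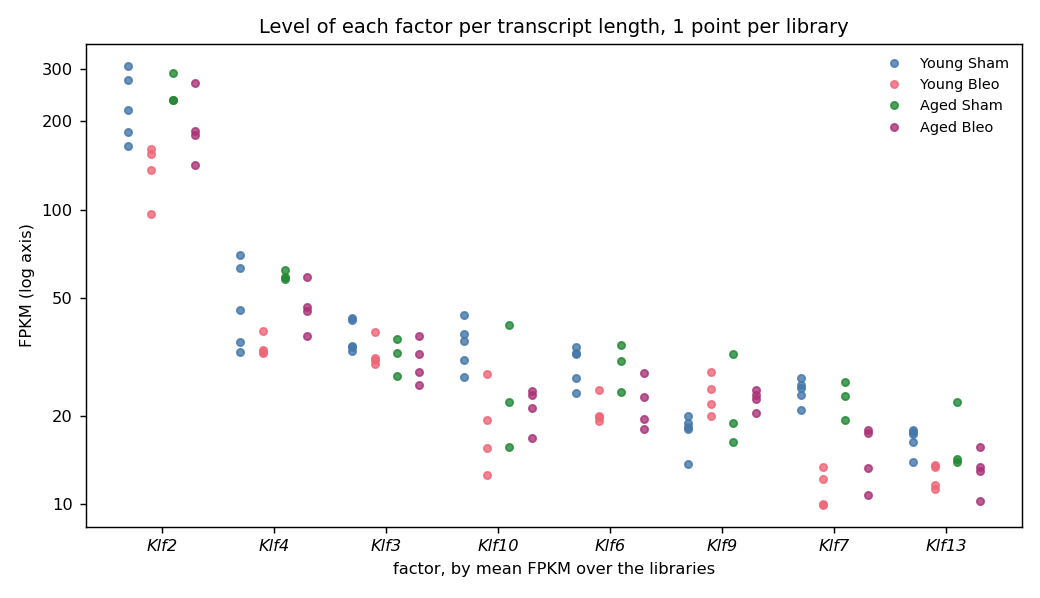
FPKM of the 8 factors (log axis), with 1 point per library, coloured by group, and genes ordered by their mean over the 16 libraries. Klf2 lies between 96.9 and 308 FPKM, above every other factor in every library, and Klf13 is the lowest on average at 14.7 FPKM.

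The response of young ECs to injury was compared first. Of the 8 factors, 4 fell in Young Bleo against Young Sham and none rose: Klf2, Klf6, Klf7 and Klf10. Calls needed an adjusted p (Benjamini-Hochberg, over all genes tested) no larger than 0.05 together with a log2 fold change of 0.5 or more in size. Of 18515 genes tested, 6.35% were called lower and 7.57% higher. Among the 6994 deeply counted genes, those with a mean normalized count of 1000 or more like all 8 factors, 9.32% were called lower. The edgeR quasi-likelihood test called the same 4 factors, against 4.09% of genes called lower. The 4 were also the factors whose groups did not overlap, which held in the lower direction for 7.17% of genes. All but Klf9 had a negative point estimate. The median log2 fold change over the 8 was -0.56, beside 0.0095 over all genes tested and -0.0299 over the deeply counted ones.

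Klf7 fell the most. Its normalized counts in Young Sham 21 to 25 were 19347, 19612, 16571, 23487 and 21159, and in Young Bleo 17 to 20 they were 8138, 8082, 10259 and 10199. Every injured library lay well under every sham library. The log2 fold change was -1.13 ± 0.168 (SE, adjusted p = 6.7e-09), or 0.458 of the sham level, and the edgeR adjusted p was 0.0016.

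Klf10, an immediate TGF-beta target, fell to 0.520 of the sham level (log2 fold change -0.94 ± 0.243 SE, adjusted p = 0.0019, edgeR adjusted p = 0.0218). The counts in Young Sham 21 to 25 were 8315, 11205, 10648, 10055 and 13703. Those in Young Bleo 17 to 20 were 4718, 5864, 3973 and 7896. Young Bleo 20 stood closest to the sham libraries, just under the lowest of them.

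Klf2, the flow-induced factor, fell to 0.582 of the sham level (log2 fold change -0.78 ± 0.224 SE, adjusted p = 0.0061, edgeR adjusted p = 0.0324). Young Sham 21 to 25 had 30671, 32944, 49648, 60992 and 41304 normalized counts, and Young Bleo 17 to 20 had 17940.0, 28504, 26114 and 27866. The sham libraries were the more scattered. Young Sham 21 and 22 were the low ones, and they sat just above the injured group.

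Klf6, known for its role in vascular wound responses, fell to 0.678 of the sham level (log2 fold change -0.56 ± 0.151 SE, adjusted p = 0.0031, edgeR adjusted p = 0.0262). Its counts were 10148, 11014, 13485, 15496 and 14041 in Young Sham 21 to 25, and 8382, 8414, 8361 and 9663 in Young Bleo 17 to 20. The groups did not overlap, though Young Sham 21 and Young Bleo 20 lay close together. Without Young Sham 24 the log2 fold change was -0.48, just under the minimum size, at an adjusted p of 0.016.

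Klf4 had almost the same point estimate as Klf6, -0.56 ± 0.228 (SE), but missed the threshold (adjusted p = 0.074). Its counts were 10134, 10509.7, 13598, 22899.5 and 19903 in Young Sham 21 to 25 against 10035, 11820.0, 10269.8 and 9572 in Young Bleo 17 to 20. Young Sham 21 and 22 sat within the injured range and the other sham libraries above it. Without Young Sham 21 the adjusted p was 0.0213, and without Young Sham 22 it was 0.0263.

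The other 3 factors did not pass. On the log2 scale Klf13 changed by a point estimate of -0.44 ± 0.185 (SE, adjusted p = 0.0929) and Klf3 one of -0.22 ± 0.134 (SE, adjusted p = 0.284). Klf9, the glucocorticoid target, had the only positive estimate, 0.39 ± 0.186 (SE, adjusted p = 0.146), with 4803 to 6673 counts in Young Sham and 6117 to 9208 in Young Bleo.

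**Figure D2:**
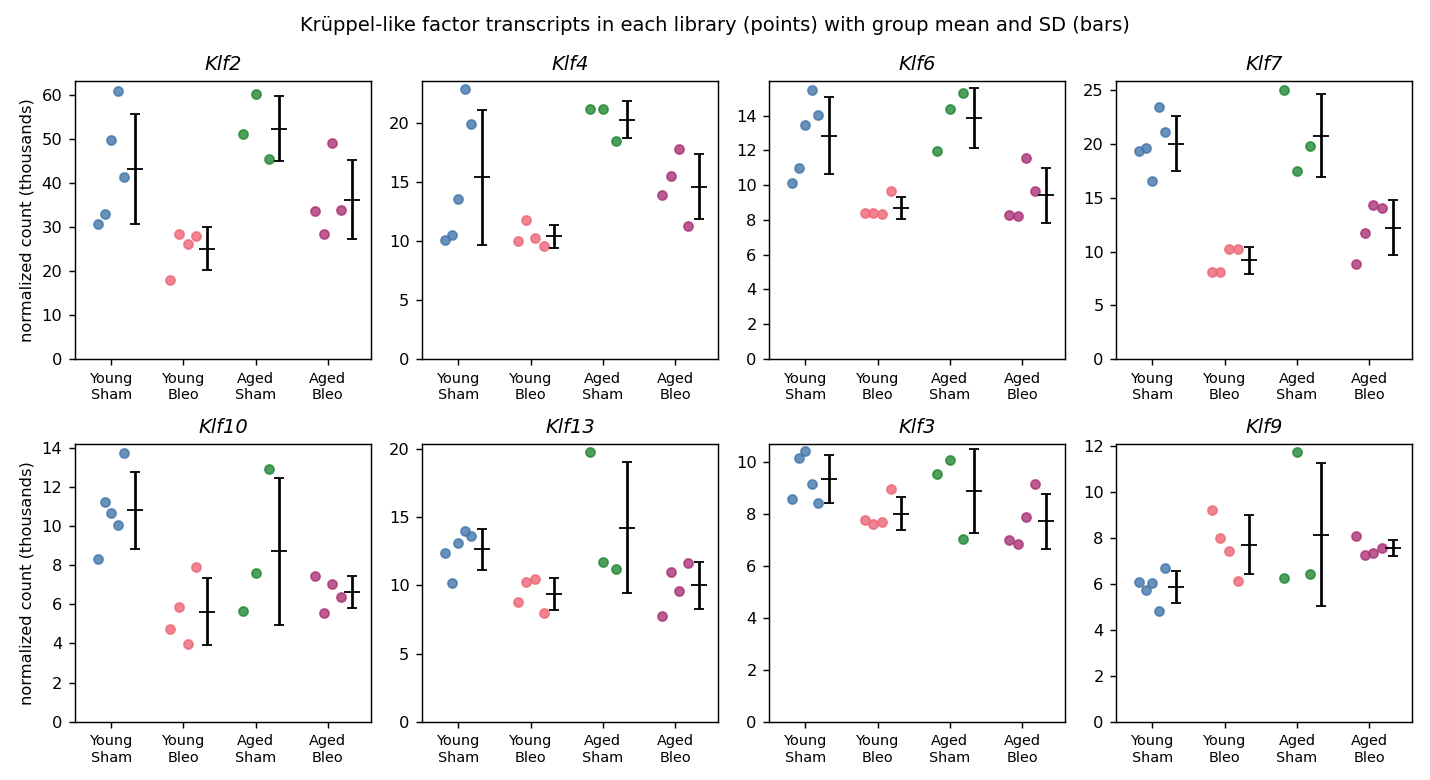
DESeq2-normalized counts of each factor (axis in units of 1000), with 1 point per library ordered by replicate number within its group, and black bars for the group mean and SD (n = 5, 4, 3 and 4). In Klf7 the Young Bleo points lie between 8082 and 10259 and the Young Sham points between 16571 and 23487.

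In aged ECs the response was compared with Aged Sham, the uninjured libraries of the same age. All 8 point estimates were negative, with a median log2 fold change of -0.49 beside 0.0061 over all genes and -0.0571 over the deeply counted ones. The 2 factors called lower were Klf6 and Klf7, where 2.45% of genes were called lower and 3.4% higher. Among the deeply counted genes 3.59% were called lower. With edgeR, which called 0.349% of genes lower in this comparison, 0 of the 8 were called. The same held with limma voom and in a DESeq2 fit of those 7 libraries alone. Klf4, Klf6 and Klf7 did not overlap between the groups, a separation that 6.14% of genes showed in the lower direction. The group of 3 sham libraries made this the least replicated of the injury comparisons.

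Klf7 counts were 25004, 17517 and 19785 in Aged Sham 13, 14 and 15, and 8847, 11757, 14292 and 14006 in Aged Bleo 1, 2, 3 and 5. The injured libraries lay below each sham library, and the lowest was Aged Bleo 1, which also had the lowest aerocyte sum of all 16 (192.8 FPKM). The log2 fold change was -0.76 ± 0.191 (SE, adjusted p = 0.0035), and edgeR gave an adjusted p of 0.0554. Without Aged Sham 13 the log2 fold change was -0.61 with an adjusted p of 0.0527.

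Klf6 counts were 11959, 14369.7 and 15305 in Aged Sham 13, 14 and 15 and 8258, 8232, 11574 and 9650.2 in Aged Bleo 1, 2, 3 and 5. The groups did not overlap, with Aged Bleo 3 the injured library nearest to the sham group. The Klf6 estimate of -0.56 ± 0.172 on the log2 scale (SE, adjusted p = 0.0262, edgeR adjusted p = 0.108) had almost the same size as in young ECs. The call was lost without Aged Bleo 1 (adjusted p = 0.125), Aged Bleo 2 (0.0911), Aged Sham 14 (0.0846) or Aged Sham 15 (0.159).

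Klf2 had 51225, 60171 and 45521 counts in Aged Sham 13, 14 and 15 and 33566, 28406, 49032 and 33923 in Aged Bleo 1, 2, 3 and 5. Aged Bleo 3 lay within the sham range and the other 3 injured libraries under it. The log2 fold change was -0.53 ± 0.255 (SE, adjusted p = 0.226). Klf4 had 21177, 21208 and 18508 counts in the sham libraries and 13941, 15483, 17799 and 11287 in the injured ones, or -0.47 ± 0.26 on the log2 scale (SE, adjusted p = 0.314). Klf13 (-0.51 ± 0.211 SE, adjusted p = 0.14), Klf10 (-0.40 ± 0.277 SE, adjusted p = 0.478), Klf3 (-0.20 ± 0.152 SE, adjusted p = 0.525) and Klf9 (-0.11 ± 0.212 SE, adjusted p = 0.863) were not called.

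Injured aged ECs were also set against Young Sham, the baseline that the study used. This comparison shares its control libraries with the young injury comparison. Klf7 and Klf10 were called lower, where 3.14% of genes, and 3.8% of the deeply counted ones, were called lower and 6.58% of genes higher. With edgeR Klf7 alone was called, where 1.49% of genes were called lower. The Klf7 log2 fold change was -0.71 ± 0.168 (SE, adjusted p = 0.00073, edgeR adjusted p = 0.0178), and its counts did not overlap. Klf10 had 7422, 5559.6, 7044 and 6388 counts in Aged Bleo 1, 2, 3 and 5, all below the Young Sham libraries, at -0.71 ± 0.243 on the log2 scale (SE, adjusted p = 0.0374, edgeR adjusted p = 0.0947). Klf10 kept its call in 9 of the 16 fits that each left out a library, and lost it without Aged Bleo 1, 2 or 5 or Young Sham 22, 23, 24 or 25 (adjusted p = 0.0595 to 0.153). Klf6 reached an adjusted p of 0.0343 at -0.44 ± 0.151 on the log2 scale (SE), under the minimum size. Without Aged Bleo 3 its log2 fold change was -0.56 (adjusted p = 0.00421), and without Young Sham 21 it was -0.52 (adjusted p = 0.0105).

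Groups did not overlap in the lower direction for 4.94% of genes and in the higher direction for 5.82%, and Klf9 was the factor that separated upward, with 7269 to 8061 counts in Aged Bleo against 4803 to 6673 in Young Sham. The Klf9 change there was 0.37 ± 0.186 on the log2 scale (SE, adjusted p = 0.215). The flow pair was near its young baseline in this comparison, with log2 fold changes of -0.25 ± 0.224 for Klf2 (SE, adjusted p = 0.566) and -0.08 ± 0.228 for Klf4 (SE, adjusted p = 0.903).

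**Figure D3:**
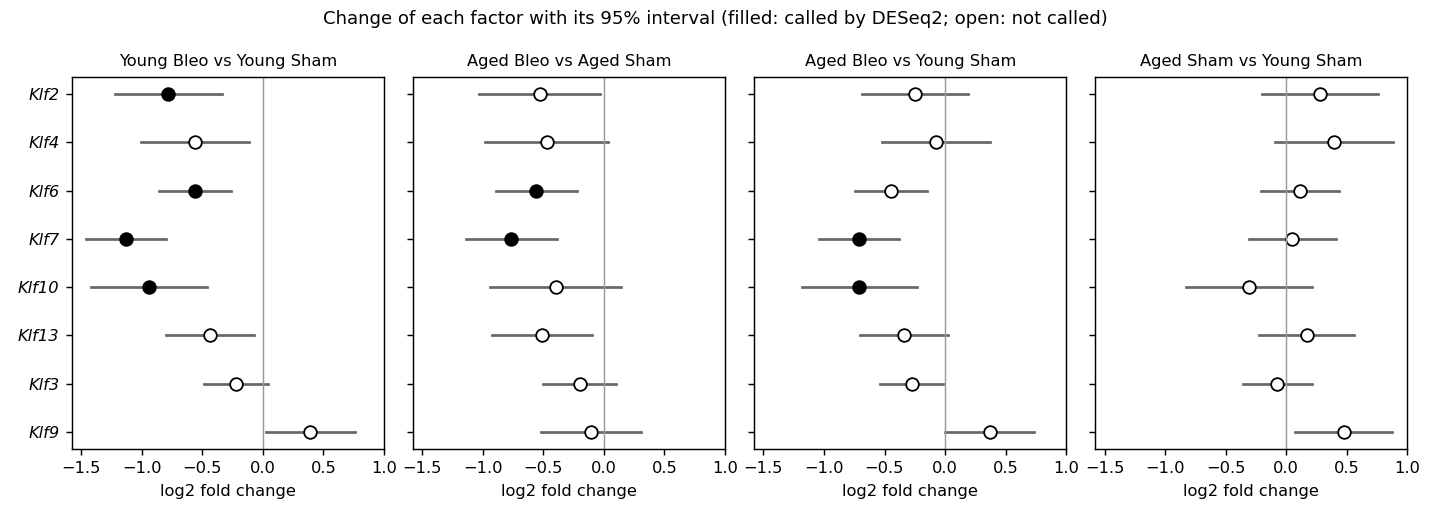
Log2 fold change of each factor (points) with its 95% Wald interval (lines) in 4 comparisons, filled where DESeq2 called the gene and open where it did not. The Klf7 interval runs from -1.46 to -0.799 in young ECs and from -1.14 to -0.39 in aged ECs after bleomycin, and 0 of the 8 points are filled for age without injury.

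Age alone moved none of the 8 past the threshold. In Aged Sham against Young Sham, 2.24% of genes were called higher and 1.12% lower by DESeq2 and 0.862% in either direction by edgeR. For the 8 factors the counts were 0 with DESeq2, 0 with edgeR and 0 with limma voom, and 1 of them, Klf9, had an unadjusted DESeq2 p under 0.05. The Klf9 log2 fold change was 0.47 ± 0.203 (SE, adjusted p = 0.214). Its counts in Aged Sham 13, 14 and 15 were 6235, 11741 and 6430.02, so that Aged Sham 14, the library with the highest platelet marker sum, stood apart from the others. Klf4 had a log2 fold change of 0.40 with an interval of -0.0899 to 0.885, Klf2 one of 0.28 (interval -0.199 to 0.757) and Klf7 one of 0.05 (interval -0.306 to 0.41).

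After injury, Aged Bleo against Young Bleo gave 0 called factors with DESeq2 (0.99% of genes called in either direction), edgeR (0.0437%) and voom. Of the 8 point estimates 6 were higher in Aged Bleo, with a median log2 fold change of 0.175 beside 0.0206 over all genes tested. The largest were those of Klf2, Klf4 and Klf7. Their log2 fold changes were 0.53 ± 0.236 (SE, adjusted p = 0.371), 0.49 ± 0.241 (adjusted p = 0.451) and 0.42 ± 0.177 (adjusted p = 0.328). Klf2 overlapped between the groups, since Aged Bleo 2, at 28406, lay under Young Bleo 18, at 28504. The responses themselves were then compared, aged minus young, as an interaction term. None of the 8 was called by DESeq2 (0.378% of genes in either direction), by edgeR (0.00546%) or by voom, and 0 had an unadjusted DESeq2 p under 0.05. The difference of responses was 0.25 for Klf2 (95% interval -0.415 to 0.916), 0.36 for Klf7 (-0.135 to 0.862), 0.54 for Klf10 (-0.18 to 1.27), 0.0024 for Klf6 (-0.446 to 0.451) and -0.50 for Klf9 (-1.05 to 0.0547). These intervals were wide beside the responses, that of Klf6 included, and an equal response at both ages was not shown.

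Of 14 genes upstream of Klf2 and Klf4 in the flow and CCM pathway, 2 rose in Young Bleo and 0 fell, where 7.57% of all genes were called higher and 6.35% lower. Piezo1, a mechanically gated channel that senses flow, rose (log2 fold change 0.75 ± 0.115 SE, adjusted p = 1.7e-08), with 3691 to 4085 normalized counts in Young Sham and 6067 to 6966 in Young Bleo. Heg1, the receptor that anchors the CCM complex to the membrane, rose by 0.63 ± 0.143 on the log2 scale (SE, adjusted p = 3e-04) in Young Bleo and by 0.56 ± 0.163 (SE, adjusted p = 0.0174, edgeR adjusted p = 0.0829) in Aged Bleo against Aged Sham, where it was the 1 of the 14 called and 3.4% of all genes were called higher. Mapk7 had 736.1 to 1038 counts in Young Sham and 813.3 to 1203 in Young Bleo, which put its log2 ratio at 0.07 ± 0.159 (SE, adjusted p = 0.853). The median over the 14 genes was 0.03 in young and -0.02 in aged ECs.

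Genes that Klf2 or Klf4 are known to induce mostly rose or were not called. Of 14 such genes, 9 rose and 1 fell in Young Bleo against Young Sham, and 7 rose and 1 fell in Aged Bleo against Aged Sham. Of these calls 8 higher and 1 lower also passed edgeR's adjusted p of 0.05 in young ECs, but 3 higher and 0 lower in aged ECs, where Gja4, Gja5, Palmd, Adamts4 and S1pr1 were lost. The shares of all genes called by DESeq2 were 7.57% higher and 6.35% lower in young ECs, and 3.4% and 2.45% in aged ECs. Of the 18324 genes that edgeR tested, it called 1793 in either direction in young ECs and 146 in aged ECs. The median log2 fold change of the 14 was 1.06 in young and 0.62 in aged ECs. Nos3, the endothelial nitric oxide synthase, had 1920 to 3264 normalized counts in Young Sham, 6929 to 8780 in Young Bleo, 1944 to 2740 in Aged Sham and 3745 to 7904 in Aged Bleo. Every injured library exceeded every sham library, and Nos3 rose at both ages (log2 fold change 1.57 ± 0.218 SE, adjusted p = 3.8e-10 in young, and 1.24 ± 0.249 SE, adjusted p = 0.00017 in aged). Ass1, which makes the arginine that Nos3 uses, rose by 0.93 ± 0.181 (SE, adjusted p = 1.5e-05) and 0.89 ± 0.206 (SE, adjusted p = 0.0014). Gja4, a connexin of arterial ECs, rose by 1.47 ± 0.322 (SE, adjusted p = 0.00017) in young and 1.52 ± 0.367 (SE, adjusted p = 0.0023) in aged ECs. The matrix protease Adamts4 rose in young (2.43 ± 0.704 SE, adjusted p = 0.0065) and aged ECs (4.29 ± 0.814 SE, adjusted p = 6.4e-05). The angiopoietin receptor Tek rose in Aged Bleo against Aged Sham (1.01 ± 0.212 SE, adjusted p = 0.00038), but age without injury had gone with a lower Tek level (-0.79 ± 0.203 SE, adjusted p = 0.0066, edgeR adjusted p = 0.0789) and was not called in Aged Bleo against Young Sham (0.21 ± 0.186 SE, adjusted p = 0.554). The summed arterial markers, which include the listed gene Gja5, ran from 39.2 to 54.5 FPKM in Young Sham and 111 to 219 in Young Bleo. Most of that rise was Cxcl12, with means of 11 FPKM in Young Sham and 114 in Young Bleo. The paper names Cxcl12 as a marker of general capillary ECs. Means of the other arterial markers went from 7.03 to 16.2 (Gja5), 12.4 to 17.4 (Hey1), 18.9 to 20 (Efnb2) and 0.533 to 0.995 (Dkk2). The part of cell types in these changes was not tested.

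S1pr1, the sphingosine-1-phosphate receptor that keeps the barrier tight, was the listed gene that fell with Klf2, from 71700 to 93060 counts in Young Sham to 46460 to 56770 in Young Bleo (log2 fold change -0.70 ± 0.142 SE, adjusted p = 4.8e-05) and again in aged ECs (-0.50 ± 0.162 SE, adjusted p = 0.0362, edgeR adjusted p = 0.127). Thbd, the anticoagulant thrombomodulin, stood at -0.47 ± 0.208 on the log2 scale (SE, adjusted p = 0.105) in young and 0.23 ± 0.236 (SE, adjusted p = 0.674) in aged ECs. Among 10 genes that Klf2 or Klf4 are known to repress, 3 rose and 1 fell in Young Bleo and 2 rose in Aged Bleo against Aged Sham. The shares of all genes called were 7.57% higher and 6.35% lower in young ECs, and 3.4% and 2.45% in aged ECs. With edgeR 2 of the rises and the fall also passed in young ECs, and 0 in aged ECs. Over all genes edgeR called 1793 and 146 in either direction. Edn1, the vasoconstrictor endothelin, rose from 4077 to 5348 counts in Young Sham to 7616 to 15130 in Young Bleo (log2 fold change 1.55 ± 0.369 SE, adjusted p = 0.00063) and by 1.25 ± 0.42 (SE, adjusted p = 0.0465, edgeR adjusted p = 0.147) in aged ECs. Kdr, the VEGF receptor, fell in Young Bleo (log2 fold change -1.64 ± 0.398 SE, adjusted p = 0.00081), and it is also an endothelial marker. The median log2 fold change of these 10 was -0.04 in young and 0.29 in aged ECs.

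**Figure D4:**
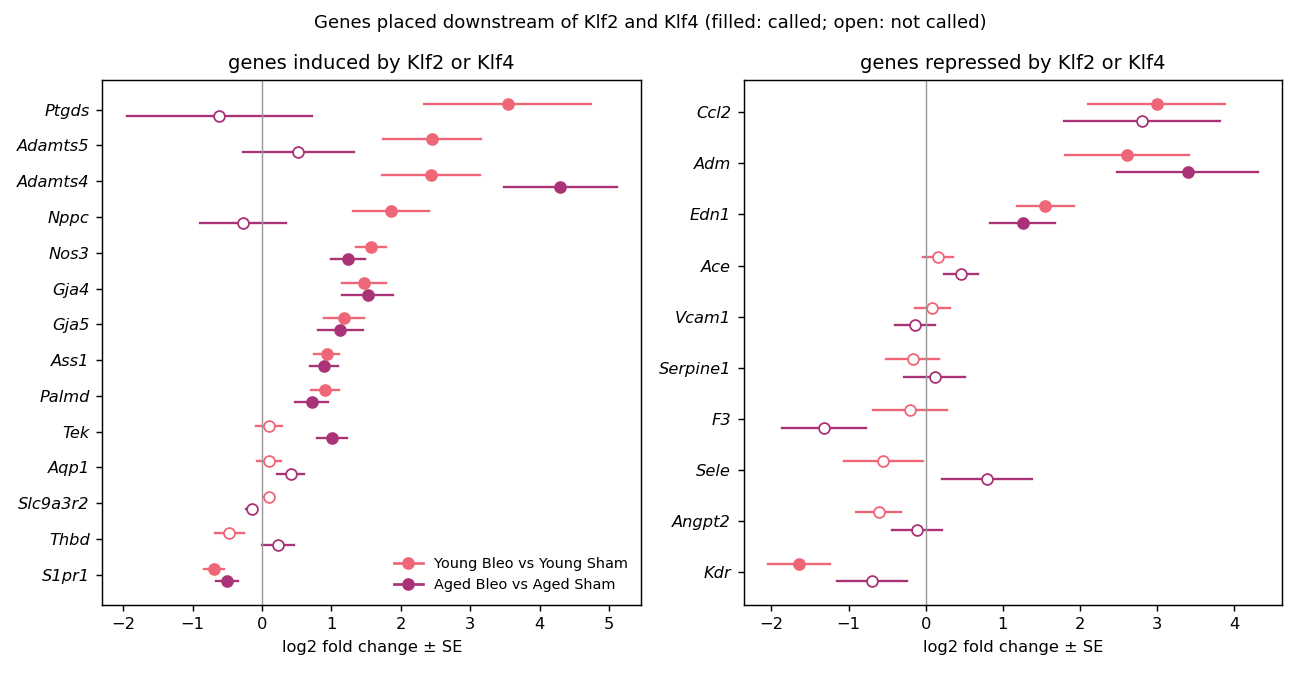
Log2 fold changes with SE of 14 genes known to be induced (left) and 10 known to be repressed (right) by Klf2 or Klf4, in young and aged injury comparisons, filled where called. Nos3 (1.57 and 1.24) and Edn1 (1.55 and 1.25) lie on the same side in both comparisons.

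Relatives outside the 8 were mostly scarce. Of 18 further KLF and SP genes, 14 were tested, 2 fell in Young Bleo, where 6.35% of all genes were called lower, and none rose in any comparison. Klf11, the nearest relative of Klf10 and also TGF-beta-responsive, had 4461 to 6246 counts in Young Sham and 1202 to 3241 in Young Bleo (log2 fold change -1.36 ± 0.314 SE, adjusted p = 0.00041), and fell in Aged Bleo against Young Sham as well (-0.99 ± 0.314 SE, adjusted p = 0.0205, edgeR adjusted p = 0.0767). Klf12, a repressor related to Klf3, fell in Young Bleo (-1.34 ± 0.469 SE, adjusted p = 0.0315, edgeR adjusted p = 0.0966). Klf14, Klf17 and Sp8 had 0 counts in each of the 16 libraries. Klf11 reached 11.8 FPKM in Young Sham on average, less than Klf13, the lowest of the 8, at 16.6 FPKM.

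Gene lists set beside the other factors were read next, and their counts in Young Bleo stand beside 7.57% of all genes called higher and 6.35% called lower. Of 13 genes of TGF-beta and BMP signalling, set beside Klf10, 2 fell in Young Bleo: the BMP receptor Acvrl1 (-0.86 ± 0.189 SE, adjusted p = 0.00017) and the inhibitory Smad6 (-1.11 ± 0.279 SE, adjusted p = 0.0012). The other genes of that list, among them its TGF-beta ligand and TGF-beta receptor genes, were not called. Of 10 glucocorticoid-responsive genes, set beside Klf9, 2 rose and 1 fell in Young Bleo. Fkbp5, a standard readout of the receptor, rose by 2.94 ± 0.612 (SE, adjusted p = 6.7e-05), with 37.4 to 117 counts in Young Sham and 464 to 989 in Young Bleo, and the receptor gene Nr3c1 fell (-0.60 ± 0.196 SE, adjusted p = 0.0198, edgeR adjusted p = 0.0584). Uncalled estimates there went both ways, as with Tsc22d3 (-0.45 ± 0.239 SE, adjusted p = 0.21) and Cebpd (0.83 ± 0.333 SE, adjusted p = 0.0708). In Aged Bleo against Aged Sham 0 of the 10 were called higher and 0 lower, beside 3.4% and 2.45% of all genes. In Aged Sham against Young Sham, where 2.24% of all genes were called higher, 2 of the 10 rose, Tsc22d3 (0.86 ± 0.26 SE, adjusted p = 0.0329) and Mt1 (1.75 ± 0.522 SE, adjusted p = 0.028). Neither passed with edgeR (adjusted p = 0.119 and 0.129). Among 12 cofactors the acetyltransferase Kat2b alone was called (-0.78 ± 0.199 SE, adjusted p = 0.0017 in Young Bleo).

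Klf2, Klf4, Klf6 and Klf10 belong to the genes that respond within minutes to handling and enzymatic digestion of tissue, so 20 other genes of that response, immediate early genes with the heat shock genes Hspa1a, Hspa1b and Dnajb1, were read beside them. In Young Bleo against Young Sham 6 of the 20 rose and 0 fell, beside 7.57% of all genes called higher, and 5 of the 6 also passed with edgeR. In Aged Sham against Young Sham 7 rose and 0 fell, beside 2.24% of all genes called higher, and 6 of the 7 also passed with edgeR. Both comparisons share the Young Sham libraries. Against Aged Sham, Aged Bleo had 1 gene higher (Socs3) and 1 lower (Dusp1), beside 3.4% of all genes called higher and 2.45% lower. Neither passed with edgeR. In the interaction, aged minus young, Fos alone was called, as lower, beside 0.378% of all genes in either direction, and it did not pass with edgeR. Fos had 2248 to 5459 counts in Young Sham, 12010 to 19180 in Young Bleo, 10960 to 21330 in Aged Sham and 15580 to 28650 in Aged Bleo. Fos rose by 1.89 ± 0.277 on the log2 scale (SE, adjusted p = 3.3e-09) with young injury and 2.15 ± 0.301 (SE, adjusted p = 1.4e-09) with age. Egr1 was not called in either (adjusted p = 0.702 and 0.606). The part of sample handling in the levels of the 4 factors was not tested.

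Within groups, some of the 8 rose and fell together from library to library. After subtraction of each group's mean log2(normalized count + 1), Pearson's r over the 16 libraries was highest for Klf2 and Klf6 (0.742), Klf2 and Klf4 (0.66), Klf4 and Klf6 (0.607), Klf7 and Klf13 (0.556) and Klf6 and Klf10 (0.525). The median of the 28 pairs was 0.144, with 17 above 0, and the lowest were Klf10 with Klf13 (-0.599) and Klf7 with Klf9 (-0.576). Libraries share depth and cell composition, and the correlations are a description. Klf10 and Klf6 followed the mean log2 level of these 20 early-response and heat shock genes within groups (r = 0.788 and 0.742), and Klf2 did so less closely (0.563). In Klf13 the deviations ran against depth (r = -0.606 with log2 total counts).

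Klf7 was set beside the marker sums of cell types. Its deviations within groups had an r of 0.76 with the log2 aerocyte marker sum, 0.738 with the pan-endothelial sum and 0.636 with the mural cell sum. The r was -0.711 with the general capillary sum and -0.872 with the arterial sum, over 16 libraries. Cxcl12 made up most of that arterial sum in Young Bleo and Aged Bleo (means of 114 and 68.3 FPKM). Klf6 had an r of 0.659 with the pan-endothelial sum and 0.563 with the aerocyte sum. Young Bleo 20 had the highest aerocyte sum of its group, 944.6 FPKM, and 10199 Klf7 counts, and Young Bleo 17, at 207.6 FPKM, had 8138, but Young Bleo 19, at 388.6 FPKM, had the most Klf7 counts of the group, 10259. Aged Bleo 3 and 5, at 1271 and 997 FPKM, had 14292 and 14006. The part of aerocyte number in the Klf7 values was not tested.

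**Figure D5:**
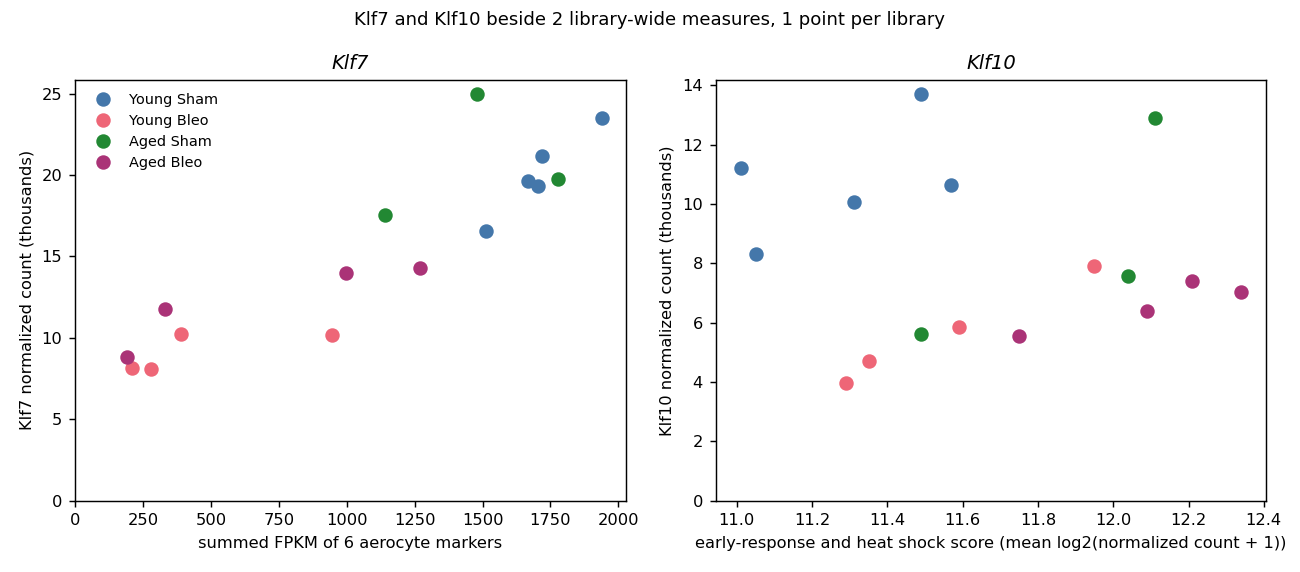
Left, Klf7 normalized counts (axis in units of 1000) against the summed FPKM of 6 aerocyte markers, and right, Klf10 normalized counts (same units) against the mean log2(normalized count + 1) of 20 early-response and heat shock genes, with 1 point per library. Klf7 runs from 8082 counts at 277.9 FPKM to 25004 at 1478 FPKM, and at like scores of 11.49 the Young Sham library has 13703 Klf10 counts and the Aged Sham library 5629.

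Over all 16 libraries, without subtraction of group means, the genes most like each factor (up to 3 are named) were sought among the 13766 genes whose normalized counts averaged 50 or more. Klf7 had the closest companions, Tspan7 (r = 0.983), Nipal3 (0.979) and Cd47 (0.976). Klf13 was most like Mtcp1 (0.95) and Tmsb15l (0.936), Klf6 most like Rab2b (0.938), Rnf130 (0.929) and Asah1 (0.925), and Klf10 most like Lman2 (0.922), Smpd1 (0.919) and Slc39a3 (0.918). For Klf4 these were Sertad1 (0.917), Vapa (0.916) and Coq10b (0.875). Klf2 had Dock11 (0.887), Fam204a (0.877) and Bcl10 (0.876), so that none of its nearest genes was a listed target. Klf9 had Clca1 (0.86), Diap3 (0.857) and Tpm4 (0.847), and Klf3 had Tln1 (0.844), Itga2 (0.83) and Rapgef6 (0.807). These values include the differences between groups and carry no test.

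Erg, the ETS factor on which the study centres, had 938.2 to 1614 counts in Young Sham, 1768 to 2203 in Young Bleo, 1748 to 2126 in Aged Sham and 1530 to 1919 in Aged Bleo. Erg rose in Young Bleo (log2 fold change 0.69 ± 0.148 SE, adjusted p = 0.00011) and in Aged Sham (0.67 ± 0.162 SE, adjusted p = 0.003, edgeR adjusted p = 0.0558) against Young Sham. Aged Bleo was also higher than Young Sham (0.53 ± 0.148 SE, adjusted p = 0.0061, edgeR adjusted p = 0.037). All of these rises share the Young Sham libraries. In Aged Bleo against Aged Sham, where Klf6 and Klf7 were called lower, Erg was not called (-0.14 ± 0.168 SE, adjusted p = 0.74). Klf2, Klf6, Klf7 and Klf10 fell in Young Bleo and were not called in Aged Sham against Young Sham. The Klf9 estimates, not called, were positive in both (0.39 and 0.47).

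The 8 genes lie on 8 chromosomes. On mm10 the deposited table places Klf2 at chr8:72319033-72321656 and Klf7 at chr1:64029447-64122282, the shortest and the longest span of the 8. Exons of Klf7 are overlapped on the opposite strand by the noncoding genes Gm26649 and Gm13748, and exons of Klf3 by Gm20033. Those genes had 481 to 1829, 34 to 238 and 8 to 73 reads per library, against 2817 or more for the factors, and since the strand setting of the counting was not given in the sources used here, reads in these overlaps could not be assigned. The longest identical run between transcripts of any pair was 36 bases, a TG repeat shared by Klf3 and Klf13, and the next was 26 bases, shared by Klf6 and Klf7, so that the factors shared no long stretch of sequence.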

How the data were processed

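RNA from sorted lung ECs of 16 mice was sequenced. The authors aligned reads to mm10 with STAR 2.5.2b and counted them per gene with featureCounts, per the labels and methods. The labels and the methods name different library kits, and whether counting used strand was not given in the sources used here. The authors deposited raw counts per gene and FPKM values, with gene lengths and coordinates. Counts were tested with DESeq2 1.42.0 in R 4.3.3 (group means over all 16 libraries, Wald test, unshrunken fold changes, Benjamini-Hochberg adjustment over all genes), with the study's tool and thresholds. Alternatives were edgeR 4.0.16 (quasi-likelihood, TMM), limma 3.58.1 (voom), TMM factors in DESeq2, a filter of 10 counts in 3 libraries, the compared groups alone, no minimum fold, and leaving out each library. FPKM was used only for levels and marker sums. The scripts were tested on simulated counts. The 8 members and the 8 gene lists were chosen with earlier results of these data known. Every member was named, and from each list up to 4 called genes with the lowest adjusted p in a comparison, plus Nos3, Thbd, Edn1, Mapk7, Fos, Egr1, Fkbp5 and Erg, with their values in other comparisons. Each mouse is a separate label. In the main fit p-values set a difference between groups against a spread between libraries that was estimated over all 4 groups together. 1 of the genes most like Klf13 is not reported here.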

Additional observations from a re-analysis of the deposited data

Results flagged for a closer look

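In 24 sets of values (a factor in a group of 4 or 5 libraries), 2 held a library far from the others, where chance gives about 1 in 20. Both were Young Bleo replicate 20: Klf3 had 8967 normalized counts there against 7773 in the nearest library, and Klf6 had 9663 against 8414 (n = 4). The same library had the highest aerocyte marker sum of Young Bleo (944.6 FPKM) and its highest early-response and heat shock score (11.95). The part of these in the 2 values was not tested.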

How the results depend on the processing

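No paired analysis was possible because the replicate numbers in the labels do not recur between groups. The 4 factors called in Young Bleo against Young Sham were 4 with every other tool and setting, and 3 to 5 when each library was left out in turn. Of the 2 factors called in Aged Bleo against Aged Sham, 0 were called with edgeR, 0 with voom and 0 in the fit of the compared groups alone, and 1 to 2 when each library was left out. Of the 2 called in Aged Bleo against Young Sham, 1 was called with edgeR and 1 with voom, 3 with no minimum fold, and 1 to 3 when each library was left out. The cause was not tested. The other 3 comparisons gave 0 called factors under each alternative that was run, and the interaction could not be fitted on 2 groups. Among single factors, 975 alternative values kept their side of the threshold, 21 lost the call and 4 gained it. Where a factor was called in the main or the alternative fit, 0 values reversed. Changes of direction were not counted for factors called in neither fit. Over all genes, DESeq2, edgeR and voom called 622, 158 and 104 for age, 1083, 146 and 53 for aged injury (645 in the fit of the compared groups alone), 1801, 1043 and 1120 for Aged Bleo against Young Sham, 188, 8 and 29 for Aged Bleo against Young Bleo, and 77, 1 and 1 for the interaction. For aged injury the DESeq2 count over all genes was 474 without Aged Bleo 1 and 1492 without Aged Bleo 3, so it turned on single libraries.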
